A study of Mus musculus with 3 samples.

Results

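Macrophage identity genes were examined in cultured primary mouse hepatic stellate cells, liver pericytes that store retinoids. The set held 38 genes, taken by name and matched to Entrez numbers, of 17870 genes listed in any of the 3 libraries. Of these, 6 are known in the mouse liver mainly from its resident macrophages, the Kupffer cells (Clec4f, Vsig4, Timd4, Cd5l, Marco and Cd163), and are called Kupffer-specific here. The other 32 are expressed across macrophages, monocytes or leukocytes in general and are called pan-myeloid. Some of these genes are also read in other cells, among them Mrc1 in sinusoidal endothelium and Gpnmb in several cell types. All 38 matched a gene, and 37 were listed in at least 1 library.

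The libraries were from CD44-/- cells, from cells labelled TLR4-/- and from wild-type cells, with 1 library per genotype. In all of them the donors were male C57BL/6 mice aged 24 weeks. Per the labels' protocols, cells were freed by perfusing the liver with collagenase and pronase, floated on a Nycodenz gradient and cleared of macrophages with magnetic beads against CD11b, the product of Itgam. They were then cultured for 3 days with 10% serum and for 24 h without serum. Neither the knockout alleles nor any pooling of animals or cultures is stated in the labels. The series description mentions triplicates on Illumina machines, whereas the extraction protocol names the BGISEQ-500, and genotypes were taken from the sample labels. With 1 library per genotype the differences below lack a replicate check and no test was possible.

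Kupffer cells line the liver sinusoids, where they take up bacteria, dying cells and modified lipoproteins through scavenger, complement and Fc receptors. The transcription factor PU.1, encoded by Spi1, and signals through the CSF1 receptor maintain macrophages in general. Their activating receptors mostly lack signalling tails of their own and pair with the adaptors FcR gamma (Fcer1g) and DAP12 (Tyrobp), which recruit the kinase SYK. PU.1 binds purine-rich DNA with the core GAGGAA.

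The libraries held 21460725 expected counts in CD44-/-, 23659074 in the library labelled TLR4-/- and 24078669 in wild type. Cd44, the hyaluronan receptor gene, stood at 2.57 FPKM in CD44-/-, against 17.2 FPKM in wild type, where FPKM counts fragments relative to transcript length and library size. Tlr4, the lipopolysaccharide receptor gene, still read 10.9 FPKM in the library labelled TLR4-/-, against 15.8 FPKM in wild type, a ratio of 0.693, so that library goes by its label throughout. All 10 stellate cell markers reached 1 FPKM in each library, with a summed 2089 FPKM in CD44-/-, 1544 FPKM in the library labelled TLR4-/- and 2019 FPKM in wild type. The defining T and natural killer cell genes Trac, Ncr1, Nkg7, Klrb1c and Gzma and the neutrophil genes S100a9, Ly6g, Mpo, Ngp and Retnlg were listed at 0 in all 3 libraries, as were the dendritic cell genes Flt3 and Ccr7 and the monocyte gene Ly6c2.

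Stretches of 100 bases upstream of the start used in the RefSeq promoter table are shown for some members that carry the contrasts below. The reason is that Spi1, the gene of PU.1, is itself a member and PU.1 is known to bind many macrophage promoters. They are from RefSeq on GRCm38.p6, run 5′ to 3′ on the gene's strand, and have in capitals each GAGGAA or, for the opposite strand, TTCCTC. Itgam encodes the target of the depletion beads, Vsig4 and Cd5l are Kupffer-specific genes, Trem2 is a lipid receptor, Laptm5 and Cd53 are leukocyte genes with unlike ratios in the library labelled TLR4-/-, and Gpnmb is the member with the most reads.
Itgam, chr7:128062540-128062639, plus strand: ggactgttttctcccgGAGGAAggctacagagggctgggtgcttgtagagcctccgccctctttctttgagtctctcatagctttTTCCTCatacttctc
Vsig4, chrX:96293439-96293538, minus strand: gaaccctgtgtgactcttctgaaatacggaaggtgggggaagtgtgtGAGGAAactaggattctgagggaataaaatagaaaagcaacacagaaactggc
Cd5l, chr3:87357781-87357880, plus strand: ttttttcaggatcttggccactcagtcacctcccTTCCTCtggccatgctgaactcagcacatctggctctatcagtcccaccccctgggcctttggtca
Trem2, chr17:48346301-48346400, plus strand: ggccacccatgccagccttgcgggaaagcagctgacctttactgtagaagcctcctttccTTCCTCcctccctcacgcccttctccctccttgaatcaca
Laptm5, chr4:130913216-130913315, plus strand: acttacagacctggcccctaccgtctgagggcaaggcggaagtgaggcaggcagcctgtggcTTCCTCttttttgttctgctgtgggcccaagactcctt
Cd53, chr3:106790150-106790249, minus strand: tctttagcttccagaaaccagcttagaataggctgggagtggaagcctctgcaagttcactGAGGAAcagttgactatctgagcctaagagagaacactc
Gpnmb, chr6:49036418-49036517, plus strand: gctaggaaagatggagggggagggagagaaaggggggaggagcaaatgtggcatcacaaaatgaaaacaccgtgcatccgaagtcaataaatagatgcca

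A promoter window of 300 bases, 250 before and 50 after the start, was at hand for 29 of the 38 members. GAGGAA on either strand lay in 16 of the 29 (55.2%), against 30.5% of 17491 protein-coding genes. The Kupffer-specific windows held it in 3 of 6 and the pan-myeloid ones in 13 of 23. The longer GAGGAAG, which contains the same 6 bases, lay in 37.9% of the member windows and in 15.5% of the protein-coding ones, and GAGGAAGT in 2 of 29 and in 3.64%. Itgam had 2 of these cores within the stretch above, and Gpnmb had none. Of the stretches at hand but not shown, those of Mrc1, Aif1, Fcgr1, Fcgr4 and Wfdc17 held the core. Those of Clec4f, Timd4, Marco, Cd163, Lyz2, Cd68, Fcer1g, Mpeg1, Cybb, Ncf1, Cx3cr1, Ccr2 and Ly86 did not. These lists do not cover every window. Fcgr3, with the core 6 and 15 bases before its start, and Ptprc, with it 158 bases before, are in neither. The stretches shown thus held the core more often than those listed as not shown. The start used for Laptm5 lies inside the annotated gene, downstream of its outermost start. Such a match describes letters in a window and is not a measured binding site.

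The macrophage genes were read far more in CD44-/- than in wild type, and less in the library labelled TLR4-/- than in wild type. Summed over the 38 genes, they held 1132 FPKM in CD44-/-, 138.5 FPKM in the library labelled TLR4-/- and 222.8 FPKM in wild type. That was 0.261% of all FPKM in CD44-/-, 0.0317% in the library labelled TLR4-/- and 0.0510% in wild type. At least 1 FPKM was reached by 30 members in CD44-/-, by 9 in the library labelled TLR4-/- and by 18 in wild type. CD44-/- had the highest value for 36 of the 38, the exceptions being Timd4, at 0 everywhere, and Ccr2. The order CD44-/-, then wild type, then the library labelled TLR4-/- held for 30 members. Hepatocyte markers were lower in both knockout-labelled libraries than in wild type, as the 5 genes summed to 0.86 FPKM in CD44-/-, 2.44 FPKM in the library labelled TLR4-/- and 12.2 FPKM in wild type, mostly Alb. Both measured hepatocyte genes were at least 2-fold lower in CD44-/-, and 1 of 2 in the library labelled TLR4-/-. Over all genes 1.97% and 2.69% were lower in these comparisons. In the first comparison both hepatocyte genes passed the 1 FPKM filter through wild type alone and so had to stand lower. In the second the same held for 1 of the 2. Hepatocyte Apoa1 and Cyp3a11 were listed at 0 in CD44-/-, and Cyp3a11 also in the library labelled TLR4-/-. The part of these cells in the macrophage values was not tested. In bulk RNA, more macrophages in a culture and more of this RNA per cell cannot be told apart.

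**Figure D1:**
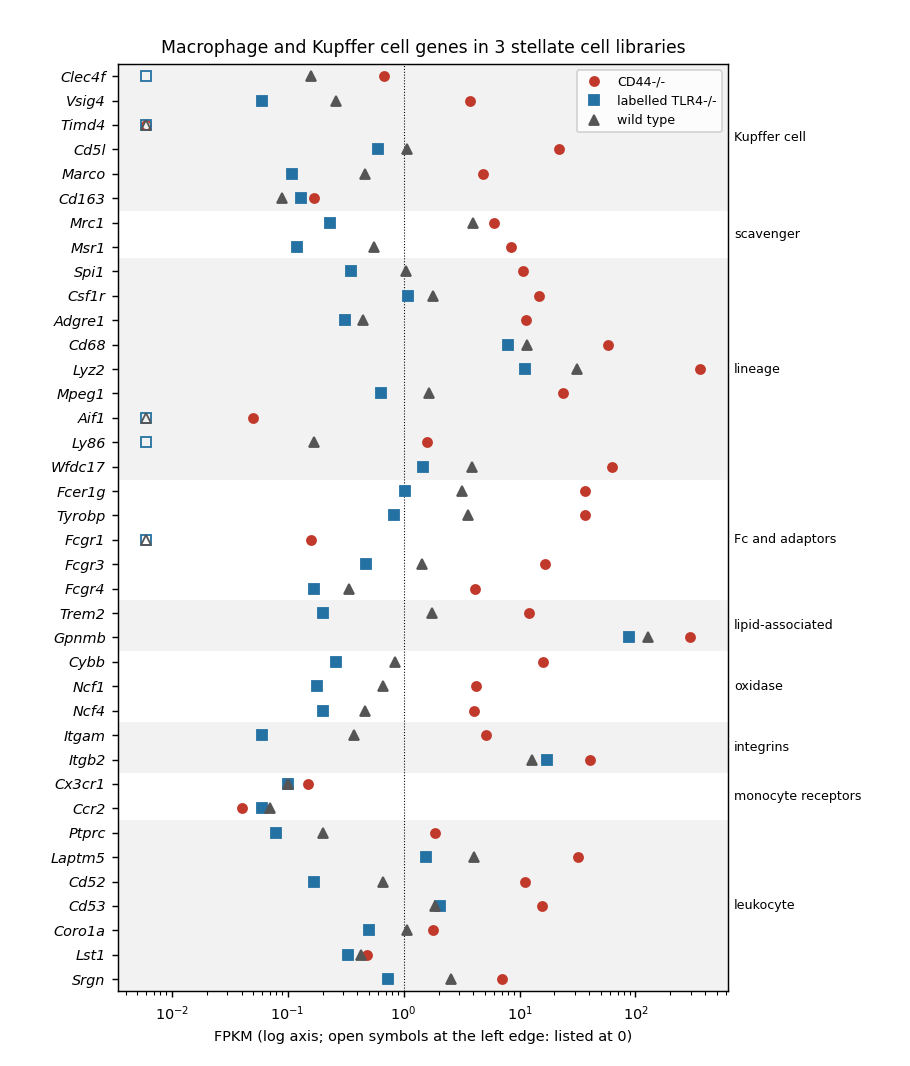
FPKM (log axis) of each of the 38 genes in the CD44-/- library (circles), the library labelled TLR4-/- (squares) and the wild-type library (triangles), ordered by role, with open symbols at the left edge for a gene listed at 0 and a dotted line at 1 FPKM. The circles lie to the right for nearly all genes, by a wide margin for Lyz2 (362 FPKM against 31.4 in wild type) and by a narrow one for Mrc1 (6.02 against 3.99).

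Differences were described by a size rule: 1 was added to each FPKM, and a gene with 1 FPKM or more in either library was called where the log2 ratio reached 1 or -1. By this rule 28 members were at least 2-fold higher in CD44-/- than in wild type and 0 were at least 2-fold lower, against 2.24% of 12247 genes higher and 1.97% lower. Mrc1 and Coro1a lay between, and 8 members stayed below 1 FPKM in both libraries (Clec4f, Timd4, Cd163, Aif1, Fcgr1, Cx3cr1, Ccr2 and Lst1). Of the 30 members inside the filter, 12 passed through the CD44-/- library alone and so had to stand higher there. Over the 37 members listed in either library the median log2 ratio was 2.01, against 0.01 over all 17479 listed genes. The 95% counting interval of the ratio of CPM, counts scaled to the library's total, lay above 1 for 32 of the 38. The share of all genes with such an interval was not computed, so this count alone does not set the members apart. These intervals, and all those below, cover counting error only.

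Among the Kupffer-specific genes, Cd5l, which encodes a secreted protein that binds lipids and protects macrophages from apoptosis, stood at 21.8 FPKM in CD44-/-, 0.60 FPKM in the library labelled TLR4-/- and 1.06 FPKM in wild type. Its ratio of CD44-/- over wild type was 20.5 (95% interval 15.5 to 27.6). Vsig4, the complement receptor through which Kupffer cells catch opsonized bacteria, read 3.71 FPKM in CD44-/-, 0.06 FPKM in the library labelled TLR4-/- and 0.26 FPKM in wild type, a ratio of 14.1 (7.16 to 31.6). Marco, a scavenger receptor for bacteria, had 4.87 FPKM in CD44-/-, 0.11 FPKM in the library labelled TLR4-/- and 0.46 FPKM in wild type, a ratio of 10.6 (6.79 to 17.2). All 3 thus stood above 3 FPKM in CD44-/- and at or below 1.06 FPKM in both others.

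The other Kupffer-specific genes stayed low in every library. Clec4f, a lectin that in the mouse is nearly exclusive to Kupffer cells, had 35 reads (0.68 FPKM) in CD44-/-, 0 reads in the library labelled TLR4-/- and 9 reads (0.16 FPKM) in wild type. Its ratio of CD44-/- over wild type was 4.36 (2.06 to 10.3). Over the library labelled TLR4-/-, the ratio was 12.9 when 3 counts were taken as the floor of an empty library. The lower limit of its counting interval there was 9.92. Cd163, the receptor that clears haemoglobin bound to haptoglobin, differed by less than counting error between CD44-/- (0.17 FPKM) and wild type (0.09 FPKM), with 0.13 FPKM in the library labelled TLR4-/-. Timd4, a phosphatidylserine receptor of long-lived resident macrophages, had 0 reads in all 3 libraries, which allows up to 0.140 CPM in CD44-/-, 0.127 in the library labelled TLR4-/- and 0.125 in wild type.

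The scavenger receptors Msr1 and Mrc1, which other cells also express, had very different ratios. Msr1, which takes up modified lipoproteins, read 8.51 FPKM in CD44-/-, 0.12 FPKM in the library labelled TLR4-/- and 0.56 FPKM in wild type, a ratio of CD44-/- over wild type of 13.6 (9.53 to 20.03). Mrc1, the mannose receptor, had the smallest ratio among well-read members, 1.51 (1.34 to 1.69), with 6.02 FPKM in CD44-/-, 0.23 FPKM in the library labelled TLR4-/- and 3.99 FPKM in wild type. Mrc1 stood 17.5-fold lower in the library labelled TLR4-/- than in wild type (12.03 to 26.4). Mrc1 is also a gene of liver sinusoidal endothelial cells, and the 8 markers of those cells summed to 15.1 FPKM in CD44-/-, 3.56 FPKM in the library labelled TLR4-/- and 54.9 FPKM in wild type, with none at 0. At least 2-fold lower than wild type were 5 of 7 measured in CD44-/- and 7 of 7 in the library labelled TLR4-/-. Over all genes 1.97% and 2.69% were lower in these comparisons. Of the 7, 3 in the first comparison and 6 in the second passed the filter through wild type alone and so had to stand lower. The part of endothelial cells in the Mrc1 values was not tested.

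The lineage genes included both the highest member and the widest difference. Lyz2, the macrophage lysozyme, stood at 362 FPKM in CD44-/-, where it ranked 179 among all genes, at 11.1 FPKM in the library labelled TLR4-/- and at 31.4 FPKM in wild type, where it ranked 2559. The ratio of CD44-/- over wild type was 11.5 (10.7 to 12.4), and its reads were in part shared with the near-identical Lyz1. Adgre1, the gene of the F4/80 antigen by which mouse macrophages are recognised, had the largest ratio among members with at least 50 reads, 25.7 (18.4 to 37.2), from 11.5 FPKM in CD44-/-, 0.31 FPKM in the library labelled TLR4-/- and 0.45 FPKM in wild type.

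Spi1, the gene of PU.1, read 10.6 FPKM in CD44-/-, 0.35 FPKM in the library labelled TLR4-/- and 1.04 FPKM in wild type, a ratio of CD44-/- over wild type of 10.2 (7.11 to 15.1). Csf1r, the receptor for CSF1 and IL-34, had 14.6 FPKM in CD44-/-, 1.09 FPKM in the library labelled TLR4-/- and 1.78 FPKM in wild type, a ratio of 8.23 (6.996 to 9.73). Cd68, a lysosomal glycoprotein that is also read at low level outside macrophages, had the smallest ratio of the measured lineage genes, 4.92 (4.31 to 5.62), with 57.5 FPKM in CD44-/-, 7.92 FPKM in the library labelled TLR4-/- and 11.7 FPKM in wild type. Spi1 and Csf1r were thus low but present in wild type, while Cd68 was well above 1 FPKM in all 3 libraries.

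Mpeg1, the pore-forming perforin-2 of phagocytes, stood at 23.5 FPKM in CD44-/-, 0.64 FPKM in the library labelled TLR4-/- and 1.64 FPKM in wild type, a ratio of CD44-/- over wild type of 14.4 (12.3 to 16.9). Wfdc17, a small secreted protein of activated macrophages, had 62.4 FPKM in CD44-/-, 1.48 FPKM in the library labelled TLR4-/- and 3.91 FPKM in wild type, a ratio of 15.9 (11.7 to 22.3). Ly86, the partner of a Toll-like receptor relative on B cells and macrophages, had 33 reads in CD44-/-, 0 in the library labelled TLR4-/- and 4 in wild type. Aif1, the gene of the macrophage marker IBA1, had a single read in CD44-/- and 0 in the others, in the same libraries where Lyz2 and Cd68 were abundant.

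The 4 measured Fc receptor and adaptor genes had ratios of CD44-/- over wild type between 10.3 and 12.2. Fcer1g, the common gamma chain, stood at 36.6 FPKM in CD44-/-, 1.03 FPKM in the library labelled TLR4-/- and 3.16 FPKM in wild type, a ratio of CD44-/- over wild type of 11.6 (8.67 to 15.8). Tyrobp, the gene of DAP12, had 36.8 FPKM in CD44-/-, 0.83 FPKM in the library labelled TLR4-/- and 3.57 FPKM in wild type, a ratio of 10.3 (7.64 to 14.2). Fcgr3, a low-affinity receptor for IgG that needs the gamma chain, had 16.5 FPKM in CD44-/-, 0.47 FPKM in the library labelled TLR4-/- and 1.45 FPKM in wild type, a ratio of 11.3 (8.36 to 15.6). The level of Fcgr3 relative to Fcer1g, both per length, differed by less than counting error between the 3 libraries, at 0.449 (0.396 to 0.510) in CD44-/-, 0.456 (0.211 to 0.988) in the library labelled TLR4-/- and 0.459 (0.302 to 0.700) in wild type.

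Fcgr4, an IgG receptor of mouse myeloid cells, read 4.12 FPKM in CD44-/-, 0.17 FPKM in the library labelled TLR4-/- and 0.34 FPKM in wild type, a ratio of CD44-/- over wild type of 12.2 (6.402 to 26.2). Fcgr1, the high-affinity IgG receptor, had 9 reads in CD44-/- and 0 in both others. With 3 counts as the floor, its ratio of CD44-/- over wild type was 3.37, and the lower limit of the counting interval was 2.21. Fcgr3 and Fcgr4 were thus well read in CD44-/-, where Fcgr1 was barely read.

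The lipid-associated pair differed strongly in level. Gpnmb, a lysosome-associated glycoprotein, was abundant everywhere, at 296 FPKM in CD44-/-, 88.2 FPKM in the library labelled TLR4-/- and 128 FPKM in wild type, and its ratio of CD44-/- over wild type was 2.32 (2.27 to 2.37). Trem2, a lipid receptor that signals through DAP12, had 11.97 FPKM in CD44-/-, 0.20 FPKM in the library labelled TLR4-/- and 1.77 FPKM in wild type, a ratio of 6.81 (4.97 to 9.51). Relative to Tyrobp, Trem2 stood at 0.325 (0.279 to 0.379) in CD44-/-, 0.241 (0.0656 to 0.752) in the library labelled TLR4-/- and 0.496 (0.324 to 0.759) in wild type. The 3 intervals of that ratio overlap.

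The members of the phagocyte oxidase, which makes superoxide against ingested microbes, were all above 4 FPKM in CD44-/- and below 1 FPKM in both others. Cybb, the catalytic membrane subunit, stood at 16.0 FPKM in CD44-/-, 0.26 FPKM in the library labelled TLR4-/- and 0.85 FPKM in wild type, a ratio of CD44-/- over wild type of 18.8 (15.3 to 23.3). Ncf1, the organizer in the cytosol, had a ratio of 6.31 (4.56 to 8.89), from 4.22 FPKM in CD44-/-, 0.18 FPKM in the library labelled TLR4-/- and 0.67 FPKM in wild type. Ncf4, a further cytosolic subunit, had 4.02 FPKM in CD44-/-, 0.20 FPKM in the library labelled TLR4-/- and 0.46 FPKM in wild type, a ratio of 8.77 (5.19 to 15.8).

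The integrin pair forms the complement receptor CD11b/CD18, of which CD11b was the target of the depletion beads. Itgam, the alpha chain, was read at 5.09 FPKM (515 reads) in CD44-/-, 0.06 FPKM (7 reads) in the library labelled TLR4-/- and 0.37 FPKM (42 reads) in wild type, a ratio of CD44-/- over wild type of 13.8 (10.0 to 19.3). The interval of the bead target's RNA held 10.3, the median ratio of the members. Itgb2, the beta chain shared by all CD18 integrins, departed from this order, with 40.4 FPKM in CD44-/-, 17.2 FPKM in the library labelled TLR4-/- and 12.7 FPKM in wild type. It was the one member whose counting interval put the library labelled TLR4-/- above wild type, at a ratio of 1.35 (1.24 to 1.47). Against the summed alpha chains Itgam, Itgal and Itgax, Itgb2 had 40.4 FPKM to 16.4 in CD44-/-, 17.2 to 0.21 in the library labelled TLR4-/- and 12.7 to 1.69 in wild type. Itgb2 thus exceeded this sum by 2.46 times in CD44-/-, 81.9 times in the library labelled TLR4-/- and 7.54 times in wild type. The value of 81.9 rests on few alpha chain reads (7 for Itgam, 6 for Itgal and 9.77 for Itgax), and no counting interval was formed.

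The chemokine receptors of circulating monocytes were barely read. Cx3cr1, the fractalkine receptor, had 0.15 FPKM in CD44-/-, 0.10 FPKM in the library labelled TLR4-/- and 0.10 FPKM in wild type. Ccr2, the receptor by which monocytes follow CCL2, had 0.04 FPKM in CD44-/-, 0.06 FPKM in the library labelled TLR4-/- and 0.07 FPKM in wild type. Neither differed beyond counting error in any comparison. Both had fractional counts, which shows reads shared with other genes.

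Leukocyte genes made up the last role. Ptprc, the pan-leukocyte phosphatase CD45, stood at 1.87 FPKM in CD44-/-, 0.08 FPKM in the library labelled TLR4-/- and 0.20 FPKM in wild type, a ratio of CD44-/- over wild type of 9.56 (6.30 to 15.1). Laptm5, a lysosomal membrane protein of blood cells, had 31.9 FPKM in CD44-/-, 1.55 FPKM in the library labelled TLR4-/- and 4.03 FPKM in wild type, a ratio of 7.94 (6.91 to 9.14). Cd53, a leukocyte tetraspanin, had 15.7 FPKM in CD44-/-, 2.08 FPKM in the library labelled TLR4-/- and 1.86 FPKM in wild type, a ratio of 8.45 (7.01 to 10.3). Cd53 was, beside Itgb2, the other measured member that was not lower in the library labelled TLR4-/-, where its ratio over wild type was 1.11 (0.869 to 1.43).

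Cd52, a small lipid-anchored surface peptide, stood at 11.2 FPKM in CD44-/-, 0.17 FPKM in the library labelled TLR4-/- and 0.66 FPKM in wild type, a ratio of CD44-/- over wild type of 17.0 (8.34 to 40.2). Srgn, the core protein of a granule proteoglycan, had the lower ratio of 2.72 (1.98 to 3.77), with 7.02 FPKM in CD44-/-, 0.74 FPKM in the library labelled TLR4-/- and 2.58 FPKM in wild type. Coro1a, an actin regulator of leukocytes, was closer still, at 1.80 FPKM in CD44-/-, 0.50 FPKM in the library labelled TLR4-/- and 1.06 FPKM in wild type, a ratio of 1.70 (1.13 to 2.58). Lst1 had 4 reads in CD44-/-, 3 in the library labelled TLR4-/- and 4 in wild type, too few to show a difference at this depth.

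Kupffer-specific and pan-myeloid genes were then set against each other. In CD44-/- over wild type, 2.24% of all genes were at least 2-fold higher. So were 3 of 3 measured Kupffer-specific members and 25 of 27 measured pan-myeloid members. Of these measured members, 2 Kupffer-specific and 10 pan-myeloid ones passed the filter through CD44-/- alone, so the counts do not compare the groups. The median log2 ratio was 1.90 over the 5 listed Kupffer-specific members and 2.18 over the 32 pan-myeloid ones. Pooled, the Kupffer-specific genes had 1321 reads in CD44-/-, 50 reads in the library labelled TLR4-/- and 102 reads in wild type, a ratio of CD44-/- over wild type of 14.5 (11.9 to 18.0). The pan-myeloid genes had 49876 reads in CD44-/-, 10252 in the library labelled TLR4-/- and 15614 in wild type, a ratio of 3.58 (3.52 to 3.65). The order of the medians depended on the setting. The Kupffer-specific median was the higher one with a pseudocount of 0.1 (3.15, against 2.92 pan-myeloid) and with TPM rescaling (2.57, against 2.53). With a filter at 5 FPKM only Cd5l was left of the Kupffer-specific genes, at 3.47, against a pan-myeloid median of 2.61.

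The pooled ratios rest on few genes. Cd5l supplied 949 of the 1321 Kupffer-specific reads in CD44-/-, and without it the Kupffer-specific ratio was 8.33 (6.20 to 11.5). Without Gpnmb and Lyz2 the pan-myeloid ratio was 6.39 (6.15 to 6.64), and without Itgb2, Cd68 and Mrc1 as well it was 10.5 (9.94 to 11.1). These genes were chosen for leaving out after their values were seen. Because the gene furthest up was taken from one side and genes furthest down from the other, these values do not compare the groups.

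The ratios were not alike from gene to gene. Among 29 members with at least 50 reads in CD44-/- or wild type, the median ratio was 10.3, and 12 members had an interval that held this median. Below it lay 11, namely Cd68, Csf1r, Mrc1, Laptm5, Cd53, Itgb2, Trem2, Gpnmb, Ncf1, Coro1a and Srgn. Above it lay 6, namely Cd5l, Lyz2, Adgre1, Mpeg1, Cybb and Wfdc17. The ratios of Cd5l, Vsig4 and Marco all lay above the median, Vsig4 and Marco with intervals that held it. Among these 29, ratios of at least 10 were reached by 16.

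**Figure D2:**
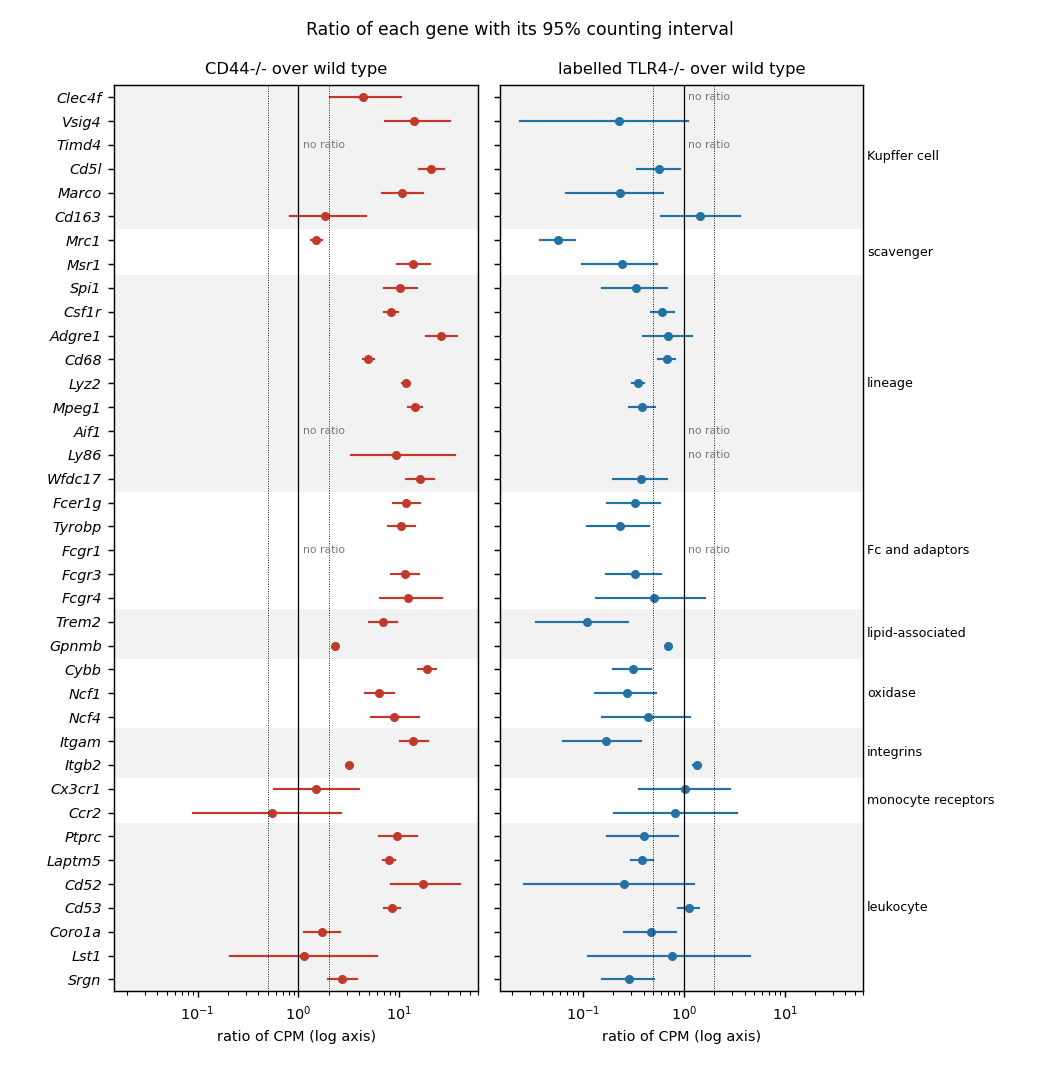
Ratio of CPM (log axis) of each gene in CD44-/- over wild type (left) and in the library labelled TLR4-/- over wild type (right), with bars for the 95% counting interval, dotted lines at 2-fold and "no ratio" where a library had too few reads. On the left the points spread around 10.3, the median of the 29 genes with at least 50 reads, and 12 of these have bars that hold it. Mrc1 (1.51), Gpnmb (2.32) and Itgb2 (3.17) are among those to its left. On the right most points lie below 1, with Itgb2 (1.35) above it.

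The makeup of the macrophage signal was compared within each library, a measure that the library total does not move. Gpnmb and Lyz2 together held 58.2% of the summed member FPKM in CD44-/-, 71.7% in the library labelled TLR4-/- and 71.4% in wild type, but Lyz2 alone held 31.99% in CD44-/-, 8.01% in the library labelled TLR4-/- and 14.1% in wild type. The Kupffer-specific genes held 2.75% in CD44-/-, 0.650% in the library labelled TLR4-/- and 0.911% in wild type. As a share of reads this was 2.58% (Clopper-Pearson 95% interval 2.44 to 2.72) in CD44-/-, 0.487% (0.360 to 0.639) in the library labelled TLR4-/- and 0.649% (0.529 to 0.787) in wild type. These shares rest largely on Cd5l. It supplied 21.8 of 31.2 Kupffer-specific FPKM in CD44-/-, 0.60 of 0.90 in the library labelled TLR4-/- and 1.06 of 2.03 in wild type. A share without Cd5l was not computed. Of the other 36 genes' FPKM, with Lyz2 and Gpnmb set aside, Fc receptors and adaptors held 19.9% in CD44-/-, 6.37% in the library labelled TLR4-/- and 13.4% in wild type. Integrins, nearly all of it Itgb2, held 9.61% in CD44-/-, 44.0% in the library labelled TLR4-/- and 20.6% in wild type.

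**Figure D3:**
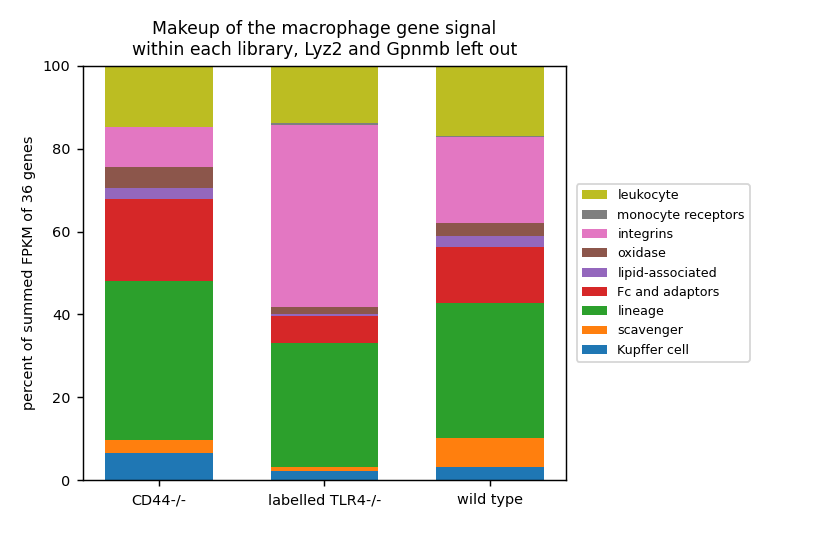
Percent of the summed FPKM of 36 genes (Lyz2 and Gpnmb left out) held by each role in the CD44-/- library, the library labelled TLR4-/- and the wild-type library. The integrin segment takes 44.0% in the library labelled TLR4-/-, and the Fc receptor and adaptor segment is largest in CD44-/- (19.9%).

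The library labelled TLR4-/- was next compared with wild type, which is the same wild-type library as above. By the size rule 0 members were at least 2-fold higher and 6 were at least 2-fold lower, against 1.04% of 12098 genes higher and 2.69% lower. Those 6 were Mrc1 (log2 ratio -2.02), Lyz2 (-1.42), Tyrobp (-1.32), Trem2 (-1.21), Srgn (-1.04) and Fcer1g (-1.04). All of them are pan-myeloid, but so were 17 of the 18 measured members. Mrc1, Tyrobp, Trem2 and Srgn passed the filter through wild type alone and so had to stand lower. A further 12 lay between, and 20 were below 1 FPKM in both libraries, so that 18 entered the filter, 9 of them through wild type alone. The interval of the ratio lay below 1 for 23 of the 38 members and above 1 for Itgb2. Here too the share of all genes with such intervals was not computed, so the count does not set the members apart.

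Lyz2 was 2.83-fold lower in the library labelled TLR4-/- than in wild type (2.46 to 3.26), Tyrobp 4.29-fold lower (2.20 to 9.16) and Trem2 9.04-fold lower (3.61 to 29.2). Gpnmb was 1.45-fold lower (1.41 to 1.49). Itgam, with 7 reads against 42, was 5.94-fold lower (2.62 to 15.6). The Kupffer-specific genes, of which Cd5l alone entered the filter, were 2.00-fold lower as pooled reads (1.42 to 2.87), and the pan-myeloid genes 1.496-fold lower (1.46 to 1.53). The median log2 ratio was -0.25 over the 5 listed Kupffer-specific members and -0.50 over the 30 listed pan-myeloid ones.

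A direct comparison of CD44-/- with the library labelled TLR4-/- leaves the wild-type library out. Here 29 members were at least 2-fold higher in CD44-/- and 0 were at least 2-fold lower, against 3.44% of 12168 genes higher and 1.32% lower. Of the 30 inside the filter, 21 passed through CD44-/- alone. Coro1a was the member between, at a log2 ratio of 0.90. Among 29 members with at least 50 reads in the higher library, the ratio ran from 2.35 (2.19 to 2.52) for Itgb2 to 81.7 (39.1 to 203) for Itgam, with a median of 32.6. The Kupffer-specific genes differed by a pooled ratio of 29.0 (22.0 to 39.4) and the pan-myeloid ones by 5.36 (5.25 to 5.48). Medians of the log2 ratio were 2.15 over the 5 listed Kupffer-specific members and 2.52 over the 32 pan-myeloid ones.

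Other genes of macrophages and of the same pathways were counted by list. Of 18 further macrophage genes, 17 were at least 2-fold higher in CD44-/- than in wild type, the furthest being the chemokine Ccl6 (96.6 FPKM in CD44-/-, 0.65 FPKM in the library labelled TLR4-/- and 2.95 FPKM in wild type) and the elastase Mmp12 (209 FPKM in CD44-/-, 4.03 FPKM in the library labelled TLR4-/- and 16.6 FPKM in wild type). Over all genes 2.24% were higher in this comparison. Of the 18, 8 passed the filter through CD44-/- alone and so had to stand higher there. Of 10 genes of that list measured in the library labelled TLR4-/- or wild type, 5 were at least 2-fold lower in the labelled library. Among these 10, 5 passed the filter through wild type alone and so had to stand lower in the labelled library. The share of all genes lower there was 2.69%. At the low end of the list were the inhibitory receptor Sirpa, the one gene between (45 FPKM in CD44-/-, 16.8 FPKM in the library labelled TLR4-/- and 35.65 FPKM in wild type), and the Rac activator Dock2 (1.71 FPKM in CD44-/-, 0.04 FPKM in the library labelled TLR4-/- and 0.17 FPKM in wild type).

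Of 12 further genes known from Kupffer cells, 11 were measured. Of these, 2 were at least 2-fold higher and 0 lower in CD44-/- than in wild type, against 2.24% and 1.97% of all genes. Those 2 were the folate receptor Folr2, at 14.4 FPKM in CD44-/-, 0.90 FPKM in the library labelled TLR4-/- and 1.12 FPKM in wild type, and the lectin receptor Clec1b, at 5.34 FPKM in CD44-/-, 0.07 FPKM in the library labelled TLR4-/- and 1.69 FPKM in wild type. At the low end were the ficolin Fcna (131 FPKM in CD44-/-, 94.4 FPKM in the library labelled TLR4-/- and 233 FPKM in wild type) and the haem oxygenase Hmox1 (511 FPKM in CD44-/-, 973 FPKM in the library labelled TLR4-/- and 862 FPKM in wild type). Fcna and Hmox1, both abundant, thus did not share the difference of Cd5l and Vsig4.

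Of the CSF1 receptor's ligands, Csf1 was read at a like level in all libraries and Il34 was lower in the library labelled TLR4-/-. Csf1 stood at 270 FPKM in CD44-/-, 283 FPKM in the library labelled TLR4-/- and 294 FPKM in wild type, and Il34 at 17.4 FPKM in CD44-/-, 9.75 FPKM in the library labelled TLR4-/- and 17.1 FPKM in wild type. Of the 4 measured genes of 7 in the CSF list, 2 were at least 2-fold higher in CD44-/- than in wild type. Over all genes the share was 2.24%. The 2 were Csf2rb (5.88 FPKM in CD44-/-, 0.21 FPKM in the library labelled TLR4-/- and 0.58 FPKM in wild type) and Csf2ra (19.6 FPKM in CD44-/-, 7.04 FPKM in the library labelled TLR4-/- and 9.05 FPKM in wild type), the chains of the GM-CSF receptor. Csf2rb passed the filter through CD44-/- alone and so had to stand higher there. Among 11 myeloid transcription factors, 2 were at least 2-fold higher, Irf5 (5.39 FPKM in CD44-/-, 1.19 FPKM in the library labelled TLR4-/- and 1.60 FPKM in wild type) and Cebpa (6.23 FPKM in CD44-/-, 3.50 FPKM in the library labelled TLR4-/- and 2.59 FPKM in wild type), and 0 lower. Over all genes 2.24% were higher and 1.97% lower. The lowest of that list in CD44-/- were Tfec (7.29 FPKM in CD44-/-, 12.96 FPKM in the library labelled TLR4-/- and 14.7 FPKM in wild type) and Runx1 (1.41 FPKM in CD44-/-, 2.45 FPKM in the library labelled TLR4-/- and 2.95 FPKM in wild type).

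Downstream of the adaptors, 5 of 10 measured genes of 12 were at least 2-fold higher in CD44-/- than in wild type and 0 were lower. Over all genes 2.24% were higher and 1.97% lower. Of those 10, 7 passed the filter through CD44-/- alone and so had to stand higher there. Syk, the kinase that the adaptors recruit, stood at 3.14 FPKM in CD44-/-, 0.27 FPKM in the library labelled TLR4-/- and 0.32 FPKM in wild type, and the phosphatase Ptpn6 at 4.15 FPKM in CD44-/-, 0.31 FPKM in the library labelled TLR4-/- and 0.68 FPKM in wild type. The kinase Lyn, at 13.6 FPKM in CD44-/-, 9.74 FPKM in the library labelled TLR4-/- and 13.6 FPKM in wild type, and the phospholipase Plcg2, at 3.89 FPKM in CD44-/-, 3.57 FPKM in the library labelled TLR4-/- and 3.98 FPKM in wild type, were at the low end.

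Of the 3 oxidase partners reported, the leukocyte GTPase Rac2 (8.16 FPKM in CD44-/-, 1.03 FPKM in the library labelled TLR4-/- and 1.55 FPKM in wild type) was at least 2-fold higher in CD44-/-. The widely expressed Cyba (156 FPKM in CD44-/-, 93.7 FPKM in the library labelled TLR4-/- and 125 FPKM in wild type) and Rac1 (167 FPKM in CD44-/-, 190 FPKM in the library labelled TLR4-/- and 173 FPKM in wild type) were not. Of the 4 integrin partners, the alpha chains Itgax (8.87 FPKM in CD44-/-, 0.10 FPKM in the library labelled TLR4-/- and 1.15 FPKM in wild type) and Itgal (2.47 FPKM in CD44-/-, 0.05 FPKM in the library labelled TLR4-/- and 0.17 FPKM in wild type) were at least 2-fold higher. Their ligand Icam1 (61.8 FPKM in CD44-/-, 40.1 FPKM in the library labelled TLR4-/- and 56.8 FPKM in wild type) and the integrin activator Fermt3 (9.33 FPKM in CD44-/-, 6.65 FPKM in the library labelled TLR4-/- and 6.99 FPKM in wild type) were not. Itgal passed the filter through CD44-/- alone and so had to stand higher there. The share of all genes higher in CD44-/- than in wild type was 2.24%.

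**Figure D4:**
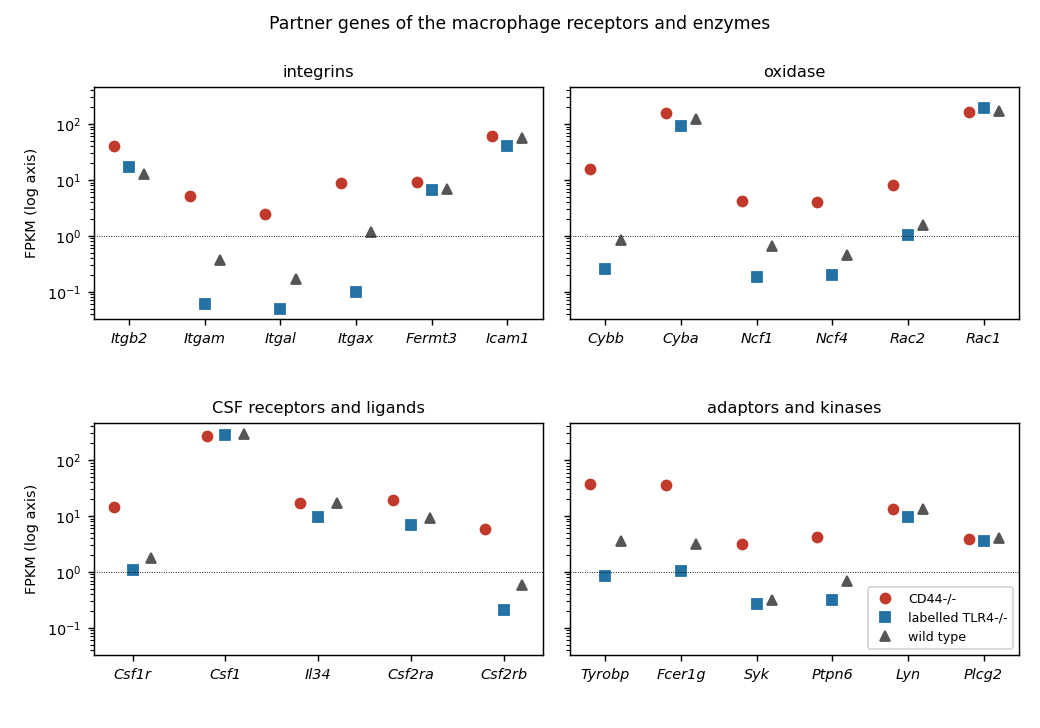
FPKM (log axis) of integrin chains and partners, oxidase subunits, CSF receptors and ligands, and adaptors with their kinases and phosphatase, in the CD44-/- library (circles), the library labelled TLR4-/- (squares) and the wild-type library (triangles). Csf1 and Rac1 lie at like levels in all 3 libraries, while Csf1r, Cybb, Itgam and Syk stand higher in CD44-/- than in the other libraries. Cyba and Icam1 are lower in the library labelled TLR4-/- (93.7 and 40.1 FPKM) than in wild type (125 and 56.8 FPKM).

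Apart from the monocyte list, marker lists of other blood cells summed to at most 7.05 FPKM in any library. The 6 monocyte genes summed to 221 FPKM in CD44-/-, 142 FPKM in the library labelled TLR4-/- and 252 FPKM in wild type, nearly all from Plac8. The 10 neutrophil genes summed to 6.70 FPKM in CD44-/-, 4.39 FPKM in the library labelled TLR4-/- and 6.61 FPKM in wild type, and the 6 dendritic cell genes to 5.94 FPKM in CD44-/-, 7.05 FPKM in the library labelled TLR4-/- and 6.37 FPKM in wild type. The T and natural killer cell genes summed to 0.99 FPKM in CD44-/-, 1.43 FPKM in the library labelled TLR4-/- and 0.60 FPKM in wild type, and the B cell genes to 0.22 FPKM in CD44-/-, 0 in the library labelled TLR4-/- and 0.19 FPKM in wild type. In CD44-/- over wild type, 0 genes of these 5 lists were at least 2-fold higher, though the defining members listed at 0 cannot show a difference. The filter left 2 monocyte, 2 neutrophil and 1 dendritic cell gene measured, and 0 T, natural killer or B cell genes. Over all genes 2.24% were called higher, so a count of 0 among so few does not show that these cells were alike.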

How the data were processed

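RNA was sequenced from 3 cultures of hepatic stellate cells, 1 per genotype, and each gene table was used as the authors deposited it. Expected counts, estimated reads per gene that need not be whole, and FPKM values are both columns of the deposited tables. The tools named, per the submitters' processing notes, are RSEM and mm10. The RSEM version and strand handling are not stated there. RSEM divides reads among similar transcripts. Of the members, 7 had fractional counts (Cd163, Lyz2, Itgam, Ncf1, Fcgr3, Cx3cr1 and Ccr2) and 11 overlap another annotated gene, so these are less certain. Genes missing from a table were set to 0, and 17824 of 17870 genes matched a symbol.

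The members and all other lists were chosen with earlier results of these data known. All members are accounted for. Other macrophage and pathway lists are given by count with the 2 highest and 2 lowest measured genes, and lists of other cell types by count or summed level. Ratios of named genes are ratios of CPM computed from expected counts, and differed from FPKM ratios by at most 0.623% for members at 1 FPKM or more in both libraries. Their exact conditional binomial (Clopper-Pearson) 95% intervals used rounded counts. A library without reads was bounded with 3 counts. Totals ranged from 21460725 to 24078669 counts. The steps were tested on simulated data. Alternatives were other pseudocounts, filters and scalings, among them TMM in edgeR 4.0.16. Python 3.11.15, pandas 2.3.3 and scipy 1.17.1 were used. A gene of the partner lists is not reported here. A planned count of adaptor motifs in proteins was not run.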

Additional observations from a re-analysis of the deposited data

How the results depend on the processing

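Counts of members at least 2-fold apart kept within 1.5 times under other scalings, no filter and counting intervals beyond 2-fold, except the 6 lower in the library labelled TLR4-/-, of which 11 were counted with a pseudocount of 0.1 and 1 with a filter at 5 FPKM. With the pseudocount of 0.1, which enlarges ratios of low genes, the Kupffer-specific median log2 ratio was 3.15 for CD44-/- over wild type and 4.56 for CD44-/- over the library labelled TLR4-/-, and the pan-myeloid median was 2.92 and 4.02 in these comparisons. With a filter at 5 FPKM only Cd5l was left of the Kupffer-specific genes, at 3.47 and 3.83 in these comparisons, so no group median was formed. The pan-myeloid median was then 2.61 and 3.25. The pseudocount of 0.1, and TPM for CD44-/- over wild type (2.57 and 2.53), put the Kupffer-specific median above the pan-myeloid one. That is the reverse of the reported order. From expected counts, the Kupffer-specific share of the members was 2.58% in CD44-/-, 0.487% in the library labelled TLR4-/- and 0.649% in wild type. With Clec4f, Vsig4, Timd4 and Cd5l alone it was 2.31% of member FPKM in CD44-/-, 0.476% in the library labelled TLR4-/- and 0.664% in wild type. Without Lyz2 it was 4.05% in CD44-/- and 1.06% in wild type. Without Lyz2 and Gpnmb, chosen after seeing the data, it was 6.58% in CD44-/-, 2.29% in the library labelled TLR4-/- and 3.19% in wild type. Left out after seeing the data, Cd5l gave a pooled Kupffer-specific ratio of CD44-/- over wild type of 8.33, and the pan-myeloid ratio was 6.39 without Gpnmb and Lyz2 and 10.5 without those and Itgb2, Cd68 and Mrc1. Of 78 log2 ratios of single members, 40 moved by more than counting error with the pseudocount of 0.1, 20 with TMM-scaled CPM, 16 with TPM and 0 with median-of-ratios scaling, and 0 changed sign beyond 2-fold. No filtered Kupffer-specific median at 5 FPKM existed for the library labelled TLR4-/- over wild type. No paired analysis was possible because each genotype has 1 library, and for the same reason none could be left out in turn.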

Other observations

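Several genes by which tissue macrophages are usually recognised stayed at or near 0 in CD44-/- although Lyz2 reached 362 FPKM there. Aif1 had 1 read, Fcgr1 9 reads and Timd4 0 reads in CD44-/-, and each had 0 reads in the library labelled TLR4-/- and in wild type. Cd163 stood at 0.17 FPKM in CD44-/-, 0.13 FPKM in the library labelled TLR4-/- and 0.09 FPKM in wild type, while its relative Marco stood at 4.87 FPKM in CD44-/-, 0.11 FPKM in the library labelled TLR4-/- and 0.46 FPKM in wild type. The complement genes C1qa, C1qb and C1qc, which macrophages secrete, ranged over 8.99 to 10.6 FPKM in CD44-/-, over 0.08 to 0.16 FPKM in the library labelled TLR4-/- and over 0.63 to 1.23 FPKM in wild type. Spic, a transcription factor of iron-recycling macrophages, had 8 reads in CD44-/- and 0 in both others.

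Gpnmb relative to Trem2, both per length, stood at 24.8 in CD44-/-, 441 in the library labelled TLR4-/- and 72.2 in wild type. Itgam relative to Itgb2 stood at 0.126 (0.114 to 0.138) in CD44-/-, 0.00349 (0.00141 to 0.00727) in the library labelled TLR4-/- and 0.0290 (0.0208 to 0.0396) in wild type. These intervals cover counting error only and do not overlap.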
